A study of Mus musculus with 2 samples.

Results

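The Col2a1 chondrocytes were 267 of the 14348 cell barcodes that passed the quality limits, or 1.86%. They were chosen by a rule on measured values. Each held 2000 to 75000 UMIs (unique molecular identifiers, each counting 1 captured RNA molecule), more than 500 genes, and under 5% of its UMIs in mitochondrial and in haemoglobin genes. Each also held at least 5 UMIs of Col2a1, at least 1 UMI of Matn4 or Matn1, and none of Cdh5. The other 14081 barcodes that passed the same limits served as the comparison.

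The library pooled heart and liver cells of C57BL/6 pups that were labelled as endothelial and sorted as CD31+ and MbTomato+. A set of 6 antibody hashtags marked heart and liver of control, iSuRe-Cre and iSuRe-HadCre mice. The labels give 1 genotype for the whole library, Cdh5-CreERT2 with the iSuRe-HadCre allele. Cdh5-CreERT2 drives a tamoxifen-inducible recombinase from an endothelial promoter. The labels give no separate genotype for the iSuRe-Cre or control mice. From single-cell sequencing, the paper reports strong Notch1 deletion in heart and liver endothelial cells that express the iSuRe-Cre or iSuRe-HadCre allele. Pups received 40 mg/kg 4-hydroxytamoxifen at postnatal day 3, and tissue was taken 3 days later, at P6 to P7. Recombined iSuRe-Cre makes the red membrane protein MbTomato together with Cre. iSuRe-HadCre first makes Cre and FlpO, and FlpO then deletes both genes and turns on MbTomato. All groups were read in 1 library and the labels do not count the pups in a group, so no value below carries a spread between animals and no test was made.

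Chondrocytes build cartilage. They secrete type II collagen fibrils, which carry types IX and XI collagen, around a gel of aggrecan held to hyaluronan by link protein, and matrilins connect the parts. The transcription factor SOX9, with SOX5 and SOX6, switches this programme on. Growth plate chondrocytes later enlarge, make type X collagen and give way to bone. Heart and liver are not cartilage organs, and the labels name no chondrocytes.

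The label was set beside 15 chondrocyte markers. Col2a1, Matn4 and Matn1 of the rule are among them, so part of each member's count was fixed by the choice. A member held a median of 10 of the 15, between 4 and 15, whereas a mesenchymal barcode held a median of 2. No count was made without the markers of the rule. These mesenchymal barcodes are the 986 with at least 5 UMIs each of Col1a2 and Col3a1 and no Cdh5 UMI that were not members. They had a median of 17267 UMIs, close to the 17153 of the members (range 2351 to 63463), and so give a comparison at like depth. The other barcodes as a whole had a median of 5584 UMIs. The labelled cell type was not met, in part through the rule, which set Cdh5 to 0. Pecam1, the gene of the CD31 protein used for sorting, gave 39 UMIs in 33 of the 267 members.

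Of the markers, 3 were in the rule, and their values describe the choice. Col2a1, the chain of type II collagen (chromosome 15, 97975602 to 98004695, GRCm38), ranged from 5 to 278 UMIs per member with a median of 20. Matn4 (chromosome 2, 164389393 to 164405160), a matrilin, was present in 263 members with a median of 6 UMIs and at most 60. Matn1 (chromosome 4, 130944385 to 130955475), the classical cartilage matrilin, was present in 85 members and reached 119 UMIs in 1 of them. Only 4 members entered through Matn1 without Matn4.

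**Figure D1:**
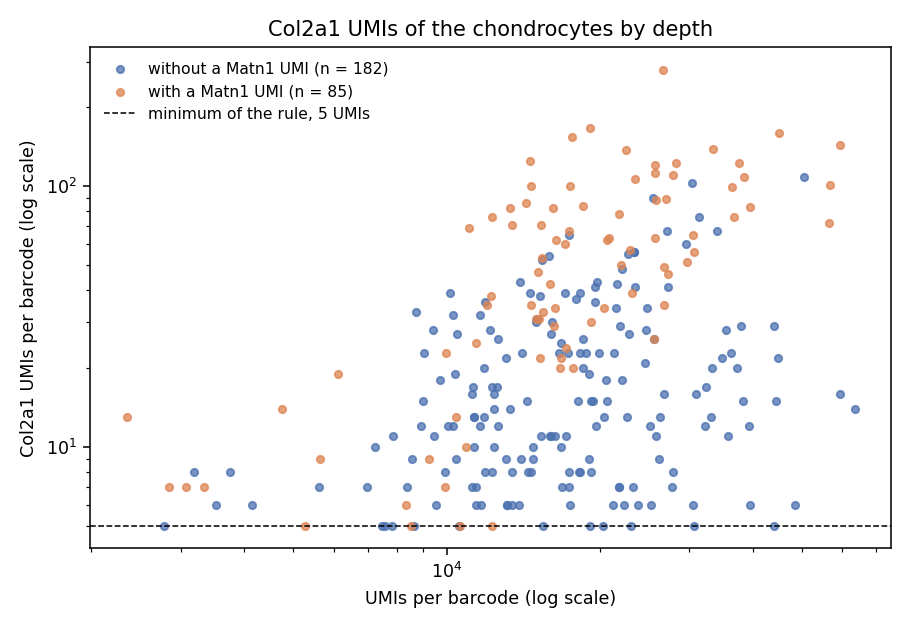
Each point is 1 of the 267 chondrocytes, with its total UMIs on the horizontal axis and its Col2a1 UMIs on the vertical axis, both on log scales. Col2a1 spans 5 to 278 UMIs, and the 85 members with a Matn1 UMI lie mostly in the upper part at each depth.

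Barcodes near the limits of the rule were read once, as a description. The 34 members with 5 or 6 Col2a1 UMIs held Col9a1 at 145.1 CPM (UMIs of the gene per 1000000 UMIs of the group) and Sox9 at 276.1 CPM. The 77 barcodes just below, with 3 or 4 Col2a1 UMIs and a matrilin UMI, held them at 138.9 and 251.9 CPM. Other genes were further apart: Sox5 was at 555.6 CPM just inside and 255.9 just outside, Sox6 at 525.6 and 247.9, and Col1a1 at 867.1 and 1934. The 85 barcodes with at least 5 Col2a1 UMIs but no matrilin UMI held Col9a1 at 175.1 CPM and Sox9 at 347.8 CPM. The 48 left out for exactly 1 Cdh5 UMI held Col9a1 at 819.7 CPM and Sox9 at 677.2 CPM. Over all members, Col9a1 was at 780.8 CPM and Sox9 at 682.4 CPM.

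Levels were compared as CPM over the summed UMIs of a group, and a gene was called when its ratio, with 10 CPM added to both sides, was at least 2 or at most 0.5. Genes needed at least 200 UMIs over both groups. Intervals are exact 95% intervals for counting error only. Against the other barcodes, 240 of 13879 genes were at least 2-fold higher, or 1.73%, and 838 were at least 2-fold lower, or 6.04%. Against the mesenchymal barcodes, 101 of 9750 genes were at least 2-fold higher, or 1.04%, and 268 were lower, or 2.75%. The median ratio over all genes was 0.971 in the first comparison and 0.977 in the second, and list medians are read beside these.

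The collagens of cartilage fibrils were higher throughout. All 7 genes of that list were at least 2-fold higher in both comparisons, Col2a1 of the rule included, with a list median ratio of 15.2 against the other barcodes and 12.3 against the mesenchymal ones. Type IX collagen, which coats the fibrils, was represented by its 3 chains. Col9a1 (chromosome 1, 24177610 to 24252684) ranged from 0 to 87 UMIs with a median of 9, and a UMI was found in 250 members. Its level was 780.8 CPM against 27.88 CPM in the other barcodes, a ratio of 28.0 (26.8 to 29.3). Col9a3 was at 1050 CPM against 38.22 (ratio 27.5, interval 26.4 to 28.5) and Col9a2 at 429.1 against 20.77 (ratio 20.7, 19.5 to 21.8).

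Type XI collagen sets fibril diameter. Col11a1, found in 262 members with a median of 18 UMIs and at most 274, was at 1693 CPM against 101.7 in the other barcodes (ratio 16.6, 16.2 to 17.1). The mesenchymal barcodes held it at 212.2 CPM. Col11a2, which pairs with it in cartilage, was at 112.9 CPM against 4.231, but only 134 members held a UMI. Col27a1, a further fibrillar collagen of cartilage, was at 196.5 CPM against 22.84 and was found in 233 members.

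Because deeper barcodes show more genes, shares were also computed at 2000 UMIs per barcode. At that depth Col9a1 was detected in 64.2% of members, 3.58% of mesenchymal barcodes and 5.40% of the other barcodes. Barcodes with at least 2% of their UMIs in 11 hepatocyte genes, which should lack cartilage genes, gave 2.21%. These 545 barcodes had a median of 4200 UMIs before thinning. Without thinning, Col9a1 was found in 93.6% of members.

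**Figure D2:**
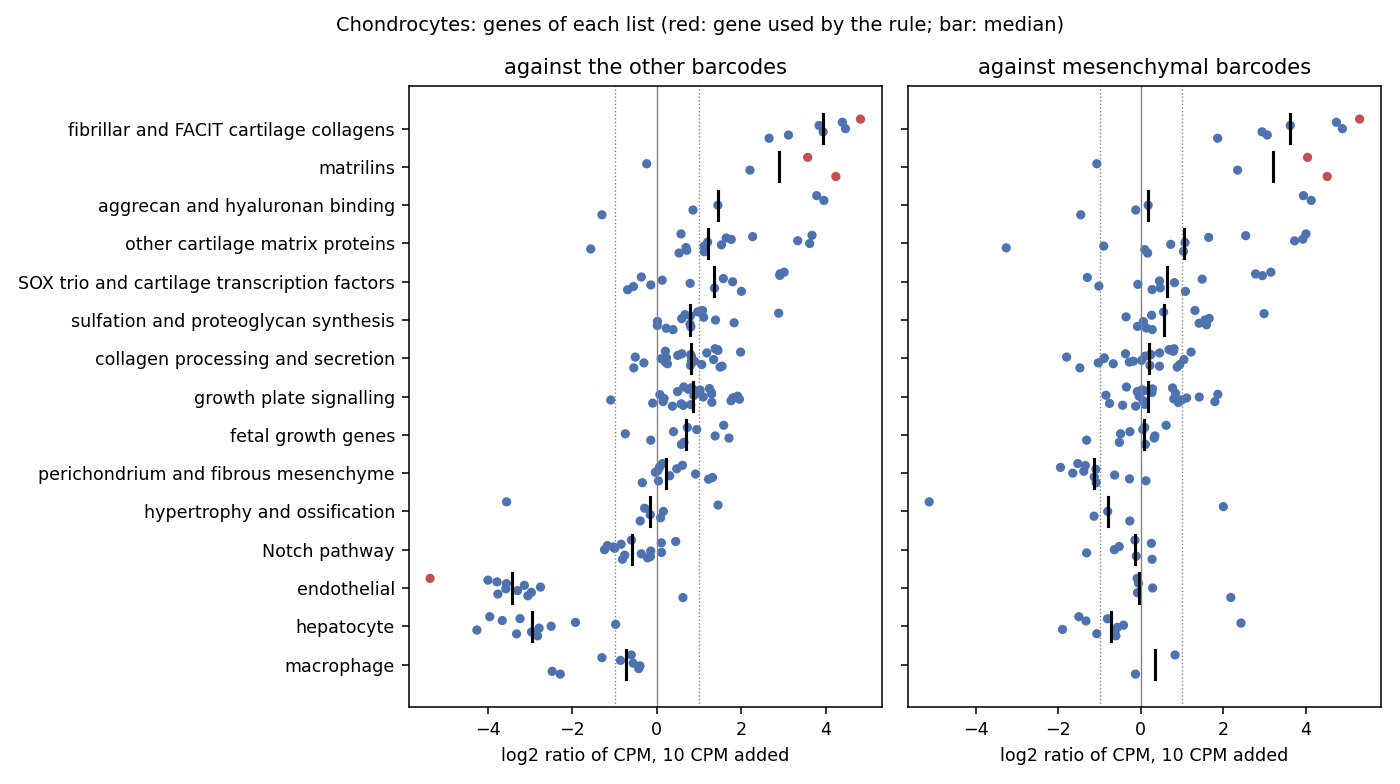
Each point is 1 gene with at least 200 UMIs, at its log2 ratio of CPM in chondrocytes over the other barcodes (left) or over the mesenchymal barcodes (right), and black bars are list medians. Cartilage collagens have the highest list median in both panels, endothelial genes other than Erg lie left in the left panel, and red marks genes the rule used.

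Acan and Hapln1 transcripts were found in a majority of members. Acan, the core protein of aggrecan (chromosome 7, 79053483 to 79115099), was found in 161 members, with a median of 1 UMI and at most 33. Its level of 189.8 CPM compared with 4.566 CPM in the other barcodes and 3.001 CPM in the mesenchymal ones, a ratio of 41.6 (37.6 to 46.0) to the first. Hapln1, the link protein that fixes aggrecan to hyaluronan, was found in 160 members and stood at 355.5 CPM against 13.68 (ratio 26.0, 24.4 to 27.7). Vcan, a related proteoglycan of loose connective tissue, was at 587.7 CPM, higher than the 210.0 of the other barcodes but within 2-fold of the mesenchymal 518.7. Has2, a hyaluronan synthase, was at 30.87 CPM against 12.61 and was not called. Cd44, a hyaluronan receptor, was lower than in both groups, at 8.053 CPM.

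Among 20 other cartilage matrix genes, 15 had enough UMIs. Of these, 10 were higher, 1 was lower and 4 were within 2-fold of the other barcodes. Cnmd, which encodes the cartilage protein chondromodulin, was at 241.6 CPM against 9.81 (ratio 24.6, 22.8 to 26.6) and was found in 153 members. Cytl1, a secreted protein known from cartilage, was at 200.4 CPM against 10.94, and Mia, also called cartilage-derived retinoic acid-sensitive protein, at 245.8 against 10.91. Snorc, a small membrane proteoglycan of cartilage, was at 50.62 CPM against 2.626, yet only 55 members held it. Dcn, the decorin gene of fibrous tissue, was the lower gene, at 39.31 CPM against 135.8 and 464.4 in the mesenchymal barcodes. Matn3, the matrilin outside the rule, was at 41.61 CPM against 1.225 and was found in 70 members, whereas Matn2 was at 6.136 against 9.059 and within 2-fold.

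The matrix level was summed over 32 genes outside the rule, from the lists of collagens, aggrecan and hyaluronan binding, and other matrix proteins. Matrilins were not in the sum, whereas Vcan and Dcn were. The sum was 7114 CPM (7041 to 7186). The other barcodes stood at 1027 CPM, a ratio of 6.93 (6.85 to 7.01), and the mesenchymal barcodes at 2032 CPM. Single members ranged from 567.3 to 35111 CPM with a median of 5939. Every member held matrix transcripts outside the rule, over a wide range. Free RNA, the RNA of barcodes with too few UMIs to pass the quality limits, held the same genes at 1154 CPM. The lowest member, at 567.3 CPM, was below that level and below both comparison groups. The sum therefore does not place every member above free RNA.

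Promoter windows were read for the matrix genes that were higher together, since they are the genes the group is known by. RefSeq windows on GRCm38.p6, from 250 bases before to 50 after a gene start, were found for 17 of the 23 called genes of the 4 matrix lists, in 20 windows. The called genes include Col2a1, Matn1 and Matn4 of the rule, and windows of Matn1 and Matn4 are among the 20. The letters GGGCGG, the core of a GC box, occurred on either strand in 11 of 20 windows and in 35.7% of all 32851 windows. TATAAA, the letters of a TATA box at any place in the window, occurred in 1 of the 20 and in 13.6% of all. Both forms of a sequence known to be bound by SOX factors were searched on either strand. The form ACAAAG occurred in 1 of the 20 windows and in 18.7% of all. The other form, ACAATG, occurred in 3 of the 20 and in 12.6% of all. The 4 windows printed here are those of a proteoglycan, a matrilin and chains of types IX and XI collagen. Capitals mark the GC-box and TATA-box letters or their reverse complements, and overlapping matches run together. The windows are chr7:79052976-79053275 (plus strand), chr4:130944135-130944434 (plus), chr4:121039316-121039615 (plus) and chr17:34038888-34039187 (plus), in the order printed. 
Acan: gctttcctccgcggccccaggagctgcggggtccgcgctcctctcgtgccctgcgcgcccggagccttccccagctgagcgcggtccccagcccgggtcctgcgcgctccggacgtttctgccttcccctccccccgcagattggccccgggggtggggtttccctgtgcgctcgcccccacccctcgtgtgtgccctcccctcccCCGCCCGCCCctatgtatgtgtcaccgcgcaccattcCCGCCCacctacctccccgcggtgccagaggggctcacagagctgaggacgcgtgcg
Matn1: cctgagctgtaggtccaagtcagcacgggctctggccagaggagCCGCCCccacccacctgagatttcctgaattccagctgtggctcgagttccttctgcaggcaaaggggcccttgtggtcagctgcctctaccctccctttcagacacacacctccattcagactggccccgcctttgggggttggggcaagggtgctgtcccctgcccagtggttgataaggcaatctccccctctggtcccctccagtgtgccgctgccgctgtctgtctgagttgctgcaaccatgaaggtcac
Col9a2: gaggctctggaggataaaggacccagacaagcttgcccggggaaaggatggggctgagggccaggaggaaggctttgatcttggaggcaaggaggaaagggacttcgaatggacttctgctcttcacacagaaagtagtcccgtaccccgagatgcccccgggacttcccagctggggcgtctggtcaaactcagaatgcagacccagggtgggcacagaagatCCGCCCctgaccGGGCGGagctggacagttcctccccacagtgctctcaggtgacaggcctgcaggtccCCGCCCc
Col11a2: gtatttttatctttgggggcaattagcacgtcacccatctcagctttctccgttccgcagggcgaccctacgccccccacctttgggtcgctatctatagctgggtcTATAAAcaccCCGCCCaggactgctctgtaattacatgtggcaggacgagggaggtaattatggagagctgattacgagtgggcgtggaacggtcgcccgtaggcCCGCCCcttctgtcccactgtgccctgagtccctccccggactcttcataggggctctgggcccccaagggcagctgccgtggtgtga
Acan and Col9a2 held 3 GC-box matches each, Col11a2 held 2 and the TATAAA match, and Matn1 held 1. These are letter matches, and their distance to the gene start was not tested. None of these 4 windows held either SOX form, which says only that those letters are not in these bases.

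The SOX trio was the leading group of transcription factors. Sox9 (chromosome 11, 112782224 to 112787760), the master regulator of cartilage, was found in 255 members with a median of 10 UMIs and at most 71. It stood at 682.4 CPM against 75.94 in the other barcodes (ratio 8.99, 8.65 to 9.34) and 67.94 in the mesenchymal ones. Sox5 was at 918.8 CPM against 113.4 (ratio 8.10, 7.84 to 8.37), and Sox6 at 803.8 against 98.72 (ratio 8.14, 7.86 to 8.43). At 2000 UMIs per barcode, Sox9 was detected in 64.6% of members, 10.8% of mesenchymal barcodes and 8.53% of hepatocyte-gene barcodes. Wwp2, whose locus carries a microRNA known from cartilage and which was named by its ratio, was at 484.5 CPM against 41.65.

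Of 13 factors in that list with enough UMIs, 7 were higher than in the other barcodes, 6 were within 2-fold and none was lower. Nfatc2 was at 86.28 CPM against 14.08, and Foxc1 at 67.88 against 16.19. Runx2, which drives bone and hypertrophic cartilage, was at 145.7 CPM against 35.01, and was within 2-fold of the mesenchymal 104.0. Trps1, a repressor known from growth plates, was at 609.5 CPM against 231.0. Barx1 and Arid5b were lower than in the mesenchymal barcodes, at 16.11 against 54.28 CPM and 120.2 against 254.0.

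**Figure D3:**
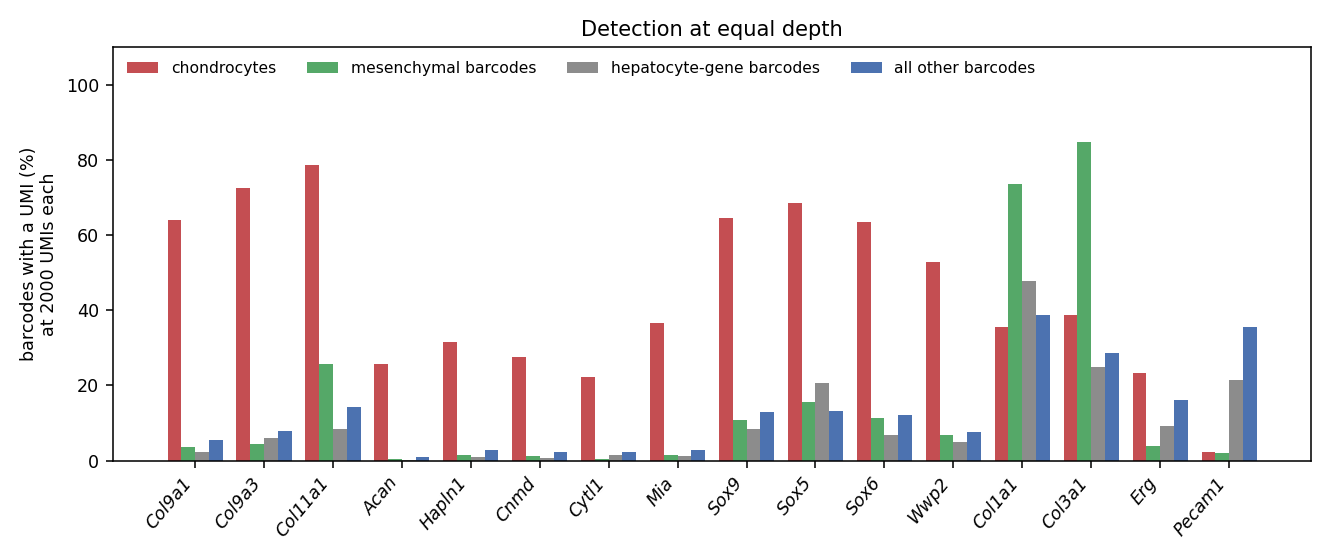
Bars give the expected percent of barcodes with a UMI of each gene at 2000 UMIs per barcode, in chondrocytes, mesenchymal barcodes, hepatocyte-gene barcodes and all other barcodes. Col9a1 to Wwp2 are highest in chondrocytes, and Pecam1 is near 2% in both chondrocytes and mesenchymal barcodes. Col1a1 and Col3a1 are highest in mesenchymal barcodes, which were chosen in part by Col3a1.

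Sulfate supply and chain synthesis genes, which equip aggrecan with its sulfated sugar chains, were higher in part. Of 15 with enough UMIs, 5 were higher than in the other barcodes and 10 were within 2-fold, and none was lower. Papss2, which makes the active sulfate donor, was at 162.0 CPM against 13.38 (ratio 12.1, 11.1 to 13.1). Ugdh, which makes the glucuronic acid precursor, was at 152.1 CPM against 35.69, and Slc26a2, the sulfate transporter, at 35.47 against 11.51. Xylt1, which starts the sugar chains, was at 111.2 CPM against 36.36, and Chst11, a chondroitin sulfotransferase, at 88.20 against 35.62. With at least 3 Col2a1 UMIs the calls of Slc26a2 (32.18 CPM) and Chst11 (77.38 CPM) were lost, and that of Slc26a2 also under 20000 UMIs (32.92 CPM). Against the mesenchymal barcodes 6 of 13 were higher, and Papss2 again had the highest ratio of the list, 13.9.

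Collagen-modifying and secretory genes gave 9 higher and 15 within 2-fold of 24 against the other barcodes. Plod2, a lysyl hydroxylase, was at 245.8 CPM against 54.89, and P4ha1, a prolyl hydroxylase, at 219.4 against 78.31. Creb3l2, a factor for the secretory load of chondrocytes, was at 211.5 against 68.58. Against the mesenchymal barcodes, which also make collagen, only Plod2 and Loxl3 were higher among the 24. Lox, Creb3l1 and Ctsk were lower there, at 10.16 against 60.34, 6.903 against 37.15 and 15.72 against 42.69 CPM.

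Growth plate signalling genes gave 10 higher, 1 lower and 15 within 2-fold of 26 against the other barcodes. Against the mesenchymal barcodes, 4 of 22 were higher and 18 were within 2-fold, with a list median ratio of 1.14. Levels below are set against the other barcodes. Receptors were among the higher ones. Fgfr3, which restrains growth plate proliferation, was at 36.81 CPM against 9.066 and was found in 90 members. Bmpr1b, a BMP receptor of cartilage condensations, was at 267.7 CPM against 63.94 and was found in 182 members. Of the ligands and antagonists, Gdf5, a joint marker, was at 17.83 CPM against 3.020, and Nog, the antagonist noggin, at 46.21 against 6.681. The call of Gdf5 was lost with at least 10 Col2a1 UMIs (11.56 CPM) and with at least 2 matrilin UMIs (14.90). Ihh, the hedgehog ligand of prehypertrophic chondrocytes, had only 42 UMIs in 17 members and too few for a call. Ptch1, a hedgehog receptor and target, was at 138.6 CPM against 52.77, while Pth1r was at 46.40 against 21.90 and Bmp6 was lower at 12.85 against 38.67, a call lost with Cdh5 UMIs allowed (19.93 CPM).

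Of 12 genes of hypertrophy and ossification, 7 had enough UMIs, and 1 was higher, 1 lower and 5 within 2-fold of the other barcodes, with a list median ratio of 0.898. Col10a1, the type X collagen of hypertrophic cells, had 2 UMIs over all members, or 0.384 CPM. Mmp13, Bglap, Bglap2 and Dmp1 had none, and the limit taken for a count of 0, 3 counts over all members (a one-sided limit), is 0.575 CPM. Ibsp had 2 UMIs, against 111.8 CPM in the other barcodes. With at least 3 Col2a1 UMIs its direction reversed, at 673.9 CPM, since 1 added barcode held 4162 Ibsp UMIs that otherwise count among the other barcodes. Alpl was at 3.835 CPM and Sp7 at 2.684, in 8 and 11 members. Spp1 was the called exception at 55.22 CPM against 13.93, but 183 of its 288 UMIs were in 1 member. Without the 23 members described below that held another cell type's genes, Spp1 was at 23.09 CPM and within 2-fold.

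Fibrous collagens gave levels within 2-fold of the other barcodes. Col1a1 was found in 178 members at 428.2 CPM, beside 389.2 in the other barcodes, and Col3a1 in 214 members at 371.4 beside 354.9. At 2000 UMIs, Col1a1 was detected in 35.4% of members and 47.7% of hepatocyte-gene barcodes, and free RNA held it at 311.0 CPM. Col3a1 was detected in 38.9% of members and 25.03% of hepatocyte-gene barcodes, with 335.9 CPM in free RNA. By level, the hepatocyte-gene barcodes held Col3a1 at 67.62 CPM. Whether these shares reflect background was not tested. In the mesenchymal barcodes, where Col1a2 and Col3a1 were part of the choice, Col1a1 was at 1258 CPM. Prrx1, a factor of limb mesenchyme, was at 316.6 CPM against 121.3 in the other barcodes and 385.6 in the mesenchymal ones. Scx, a factor of tendon progenitors, was at 63.85 against 21.65 and 57.90, and its call was lost with at least 10 Col2a1 UMIs (50.33 CPM). Of 11 fibrous genes with enough UMIs for the comparison with the mesenchymal barcodes, 8 were lower, with a median ratio of 0.456. Col1a2 and Col3a1, which chose the mesenchymal barcodes, are among the 8, and their calls only describe that choice.

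Genes outside the lists were named by their ratio with 10 CPM added, which was 9.58 for Wwp2 and 7.93 for Susd5. Without the added CPM Susd5 had the highest ratio of the genes so named, at 82.45 CPM against 1.663 in the other barcodes (ratio 49.6, 42.1 to 58.5) and 117 members with a UMI. Rflna was at 93.76 CPM against 6.419, Cthrc1 at 539.8 against 69.00, and S100b at 51.96 against 5.660. Cspg4, a membrane proteoglycan, was at 58.48 against 5.325. Unc5c, a netrin receptor, was at 734.9 against 125.0 and was found in 242 members, and Kcnq5, a potassium channel, at 595.2 against 102.2. Car3 also met the limit, at 102.4 against 16.28 CPM, but 512 of its 534 UMIs lay in 1 member.

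Named by the lowest ratios to the other barcodes were S100a8, S100a9 and Stfa1, known from neutrophils, and Fabp4 and Cavin2. S100a8 was at 13.61 CPM against 1298, S100a9 at 13.42 against 1306, and Stfa1 at 5.177 against 633.4. Fabp4, a fatty acid carrier of capillary endothelium, was at 106.4 CPM against 3242, and Cavin2 at 9.971 against 340.1. Against the mesenchymal barcodes, Igf1, Igfbp3 and Egfl6 were among the lowest, at 41.99 against 241.1, 5.561 against 70.01 and 15.91 against 172.4 CPM.

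Endothelial genes separated Erg from the rest. Of 12 list genes, 11 were lower than in the other barcodes, Cdh5 of the rule included, with a list median ratio of 0.0935. Pecam1 was at 7.478 CPM against 268.2, and Kdr, a VEGF receptor, at 6.519 against 216.6. Erg, an ETS factor of endothelium that is also known from developing cartilage (chromosome 16, 95359169 to 95586593), was at 139.6 CPM against 87.57 (ratio 1.59, 1.48 to 1.72) and 23.03 in the mesenchymal barcodes. It was found in 188 members with at most 22 UMIs. Of the 89 members without a UMI of any other endothelial list gene, 68 held Erg, at 151.1 CPM. The 27 members with at least 5 such UMIs held Erg at 90.79 CPM, a lower level than in the members without such UMIs.

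Other cell types were looked for in every member. The counts of members with at least 20 UMIs of a list were 6 for hepatocyte, 6 for neural progenitor or glia, 5 for neuron, 3 for keratinocyte and 2 for macrophage genes. There was 1 each for cardiomyocyte, erythroid, smooth muscle and notochord genes, and 0 for skeletal muscle and for endothelial genes other than Erg. The endothelial 0 follows in part from the rule, which left out barcodes with a Cdh5 UMI. The 98 barcodes left out only for Cdh5 held Pecam1 at 178.4 CPM. In all, 23 of the 267 members passed 20 UMIs in some list. Single members carried much of such a gene: 1556 of 1709 Ttr UMIs, 540 of 814 Fabp7 UMIs, 79 of 79 Prph UMIs and 60 of 91 C1qa UMIs each lay in 1 barcode. Only 1 member held T, the notochord factor, with 40 UMIs beside 21 of Shh, 43 of Krt8 and 34 of Col2a1. Whether these members hold more than 1 cell was not tested. Without those 23 members, the matrix sum was 7499 CPM and 268 genes were higher than in the other barcodes.

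Members with a Matn1 UMI held more matrix transcripts than those without, at like depth. The 85 members with a Matn1 UMI had a median of 17133 UMIs and the 182 without had 17258. Hapln1 was at 817.9 CPM in the first and 132.2 in the second. Acan was at 411.0 and 83.02 CPM, Col11a2 at 263.8 and 40.09, and Matn3 at 97.16 and 14.79. Col2a1 was at 3080 and 1046 CPM. Sox9 differed less, at 843.8 and 604.5 CPM, and the fibrous Aspn was lower with Matn1, at 5.299 against 65.96. Since Matn1 was part of the rule, these levels are a description.

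Leiden clustering of the members gave 5 sub-clusters, of 30, 67, 62, 33 and 75 members. Their defining genes are given as a description only. Sub-cluster 3 was led by Matn1, Snorc, Col11a2, Lbhd2 and Hapln1 and had a median of 52.5 Col2a1 UMIs. Sub-cluster 2 was led by the replication and division genes H1f5, Top2a, H2ac8, Nusap1 and H3c3, with Top2a at 1042 CPM. Sub-cluster 4 was led by Creb5, Hoxd13, Hoxd11, Stac and Barx2, and held Bmpr1b at 1272 CPM, Sox9 at 1715 and Erg at 423.9. Gdf5 in it was at 114.7 CPM and found in 18 of 33 members.

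Leading genes of the other sub-clusters lay largely in single barcodes. Sub-cluster 1 was led by C1qb, Apoe, C1qa, Fcer1g and Tyrobp, but 1 member held 72.3% of its C1qb UMIs, and its median depth of 7512 UMIs was the lowest of the 5. Sub-cluster 5 was led by Car3, Ttr, Spp1, Ogn and Mgat4c, of which Ogn, a small leucine-rich proteoglycan, was found in 53 of 75 members. In that sub-cluster 1 member held 99.2% of the Ttr UMIs and 97.5% of the Car3 UMIs. A finer resolution gave 7 sub-clusters.

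**Figure D4:**
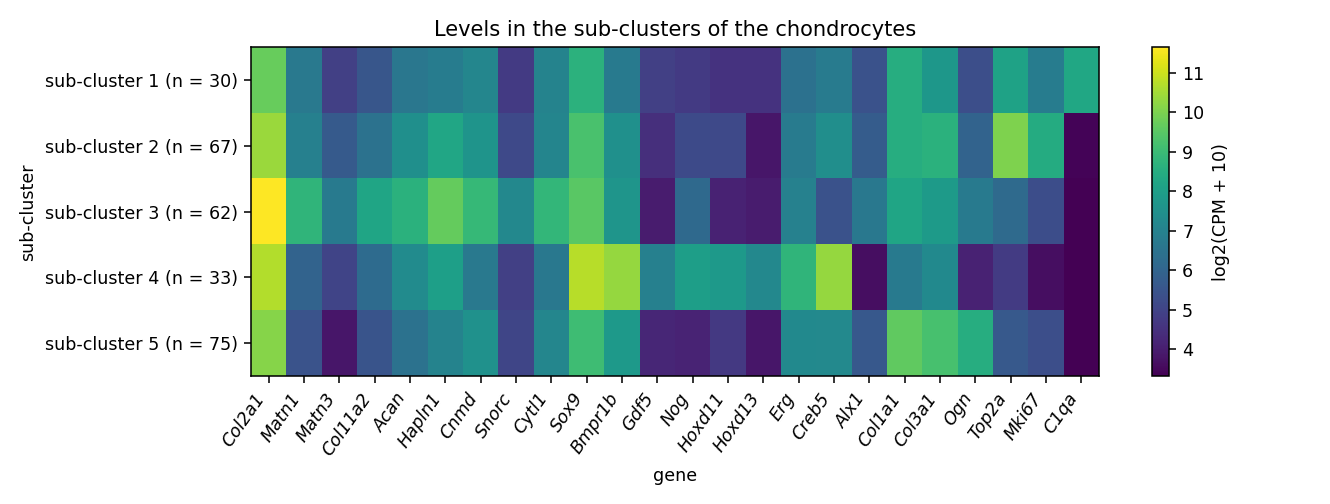
Colours give log2(CPM + 10) of each gene over the summed UMIs of each sub-cluster, with the number of members beside its name. Matrix genes are highest in sub-cluster 3, Hoxd11, Hoxd13, Gdf5, Nog and Creb5 in sub-cluster 4, Top2a in sub-cluster 2 and C1qa in sub-cluster 1.

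Division genes were concentrated in some members. The 18 G2/M genes summed to 3628 CPM in the chondrocytes, 3039 in the other barcodes and 2900 in the mesenchymal ones. Over single members the sum ran from 0 to 20085 CPM with a median of 644.9 and an upper quartile of 4633. The median was 1742 CPM in the other barcodes and 511.7 in the mesenchymal ones, so the order against the other barcodes turns between the sum and the median. All 18 were within 2-fold in both comparisons, as were all 18 S-phase genes. Top2a was found in 121 members and Mki67 in 105. Cdkn1c (chromosome 7, 143458339 to 143461050), the cell cycle inhibitor p57 of the growth plate, was found in all 267 members with a median of 35 UMIs and at most 392. It stood at 2578 CPM against 1090 in the other barcodes (ratio 2.36, 2.32 to 2.41), and within 2-fold of the mesenchymal 2176. Cdkn1a, the p53 target p21, was lower than in the other barcodes, at 18.79 CPM against 139.8.

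Positional genes, which cells of trunk and limb keep from the embryo's axes, were found in different sets of members. A UMI of any of 39 Hox genes was found in 194 members, or 72.7%, beside 72.6% of the mesenchymal barcodes and 39.8% of the hepatocyte-gene ones. At 2000 UMIs per barcode these shares were 44.9%, 43.3% and 22.3%. Paralogues 11 to 13, which pattern the ends of limbs and body, were found in 87 members. At 2000 UMIs they were seen in 12.8% of members, 7.79% of mesenchymal barcodes and 3.40% of hepatocyte-gene barcodes. Hoxd11 was at 32.40 CPM against 10.69 in the other barcodes (ratio 3.03, 2.57 to 3.56), and Hoxa7, a trunk gene, at 60.40 against 16.53 with up to 58 UMIs in 1 member. Hoxc8 was at 41.22 against 12.65 CPM, and its call was lost among barcodes under 20000 UMIs. The call of Hoxd11 was lost with at least 10 Col2a1 UMIs (29.62 CPM), with at least 3 (29.76) and with at least 2 matrilin UMIs (30.67). In the mesenchymal barcodes Hoxd11 was at 17.75 CPM, within 2-fold of the members, and Hoxc8 was at 29.81. Hoxa7 was at 24.48 CPM there, and the members were at least 2-fold higher.

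**Figure D5:**
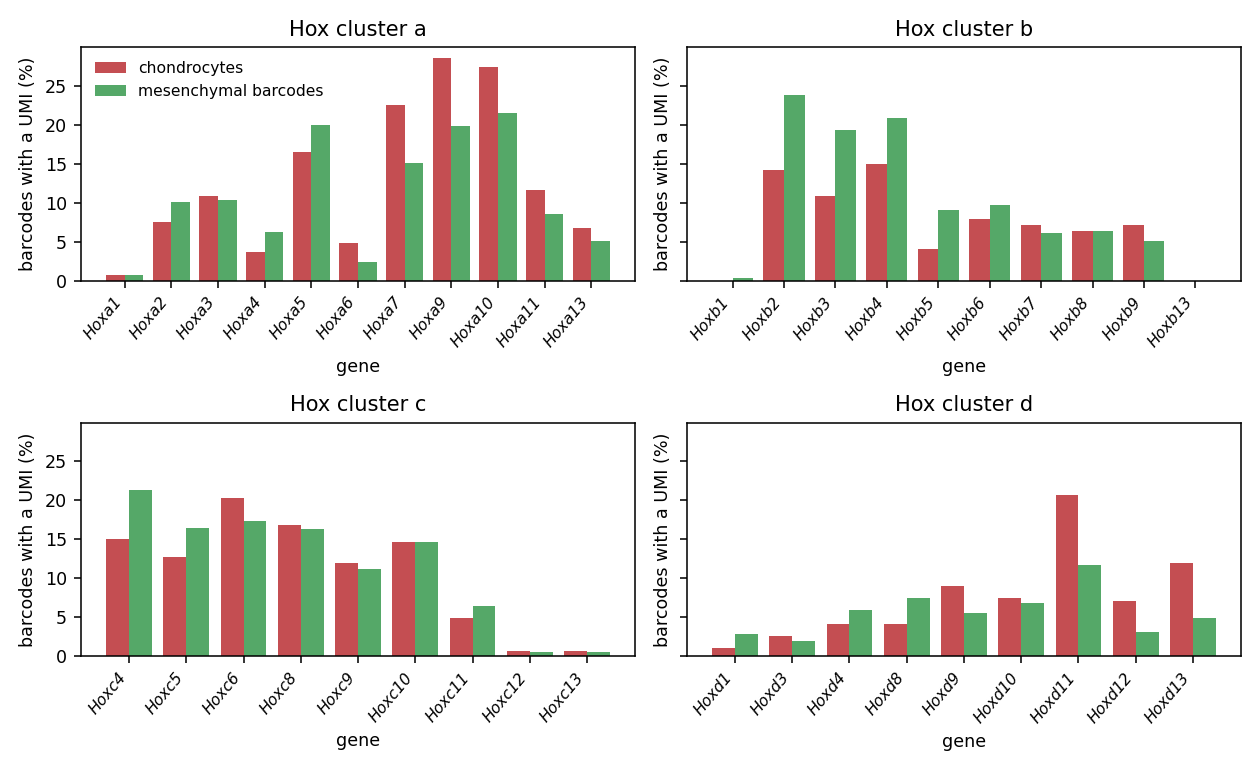
Bars give the percent of barcodes with a UMI of each Hox gene, without thinning, in the 267 chondrocytes and the 986 mesenchymal barcodes, which have like median depths. Hoxa9, Hoxa10 and Hoxd11 are each found in over 20% of chondrocytes, and Hoxb2 to Hoxb4 are found more often in mesenchymal barcodes.

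Alx1, a factor of facial and cranial mesenchyme, was found in 69 members at 49.66 CPM. The other barcodes held it at 9.883 CPM (ratio 5.03, 4.38 to 5.74) and the mesenchymal ones at 27.84. Of the 69 members with Alx1, 28 held no Hox UMI and 6 held Hoxd11, Hoxd12 or Hoxd13. Of the 198 members without Alx1, 27.8% held 1 of those 3 Hox genes, against 8.70% of those with it. Hoxc8 did not follow that order, with a UMI in 20.3% of members with Alx1 and 15.7% of those without, and Hoxa7 was at 73.06 CPM with Alx1 and 54.79 without. Of the limb factors, Tbx5 of the forelimb was found in 38 members and Tbx4 or Pitx1 of the hindlimb in 54, with 10 members in both. Tbx4 or Pitx1 was found in 42.6% of the 61 members with a late Hoxd UMI and 13.6% of the other 206. The median depth was 19903 UMIs with Alx1 and 14997 with late Hoxd, so detection was not equal in these sets. Pax1 or Pax9, known from the vertebral column, was found in 48 members. The shares of members were 14.2% for Tbx5, 20.2% for Tbx4 or Pitx1 and 18.0% for Pax1 or Pax9. In the mesenchymal barcodes they were 19.3%, 28.3% and 18.5%. Of 26 positional factors with enough UMIs, 2 were higher, 3 lower and 21 within 2-fold of the other barcodes. Against the mesenchymal barcodes, none of 21 was higher, 4 were lower and 17 were within 2-fold.

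Of the 6 listed transgene sequences, all but FlpE were at lower levels than in the other barcodes. FlpE was at 77.85 CPM against 49.54 and is described with the flagged results. Sv40-pA, a polyA signal, was at 43.91 CPM against 88.87 and was found in 93 members. Cre gave 1 UMI and ERT2 2 UMIs over the 267 members, or 0.192 and 0.384 CPM, against 11.01 and 15.67 in the other barcodes. Tomato, the reporter used for the sort, was at 6.903 CPM (4.83 to 9.56) against 38.28 and was found in 18 members. WPRE, a woodchuck virus element carried by the reporter transcripts, was at 58.1 CPM (51.7 to 65.0) against 203.4 in the other barcodes, 80.26 in the mesenchymal ones and 160.4 in free RNA, the RNA of barcodes with 10 to 100 UMIs. It was found in 68 members, or 8.42% at 2000 UMIs beside 27.2% of hepatocyte-gene barcodes. Subtracting free RNA left WPRE at 49.64 CPM. Of the 68, 8 members with at least 10 WPRE UMIs held 50.2% of its UMIs, at 509.9 CPM, with 4 Pecam1 UMIs among them. The other members held WPRE at 30.71 CPM.

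Hashtags placed few members in a group. HTODemux, which separates hashtag signal from background, assigned 71 members to a single hashtag (26.6%, exact interval 21.4 to 32.3). It called 180 negative and 16 positive for more than 1. In the other barcodes 34.0% were single. The mesenchymal barcodes, of like depth, were close to the members, with 26.9% single and 68.7% negative. Of the single members, 36 were control heart, 21 iSuRe-HadCre liver, 7 control liver, 5 iSuRe-HadCre heart and 2 iSuRe-Cre liver, and none was iSuRe-Cre heart. The control heart members were called on a median of 5 UMIs of their hashtag and the iSuRe-HadCre liver members on 6, so these assignments rest on few molecules. The iSuRe-Cre liver hashtag had a median of 21 UMIs in all members and 29 in the other barcodes. No level was compared between the groups.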

How the data were processed

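One library of hashtagged, pooled heart and liver cells was measured by 10x Genomics single-cell RNA sequencing. The deposited values are raw UMI counts per barcode, neither filtered nor normalized, which the authors made with Cell Ranger 7.1.0 on a GRCm38 reference extended by the transgenes. The matrix holds 21951 genes and added sequences in 2755147 barcodes. The labels assign no group to another 7 hashtag features, which were left out. The members and the gene lists were chosen with earlier results of these data known.

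UMIs were summed per group and given as CPM. Summed UMIs were 5215335 in the chondrocytes and 137099369 in the other barcodes. Intervals are exact Poisson (levels), exact binomial (shares) and exact conditional (ratios) and cover counting error only. With 1 library there is no replicate check and no p-value, and cells were not treated as replicates. Shares at 2000 UMIs are the expected share over all draws without replacement. Free RNA was read from 24194 barcodes of 10 to 100 UMIs.

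All genes of the lists could be named, and outside them the 15 highest and 10 lowest ratios to the other barcodes, the 10 highest and 10 lowest to the mesenchymal barcodes, and the 5 leading genes of a sub-cluster. Aspn and the added sequences A1_BC to A3_BC were chosen for naming only once their values were known. Sub-clusters came from scanpy 1.11.5 (1000 variable genes, 15 principal components, 15 neighbours, Leiden resolution 0.6). HTODemux of Seurat 5.3.0 ran at a positive quantile of 0.99 on barcodes with more than 4 UMIs over the 6 hashtags. No doublet caller was run on the RNA. Doublets were those HTODemux called, and they were kept. The ratio calls were run on simulated Poisson counts whose changed genes were set past the 2-fold limit. Those counts had no spread between cells. The run therefore checks only the computation and cannot judge calls carried by single members. Alternatives covered the rule's limits, the quality limits, depth, free RNA, the added CPM, the gene minimum and the hashtag calls. Leaving out members with 20 or more UMIs of another cell type, and a finer clustering, were added after seeing the data. Computing was done in R 4.3.3 and in Python 3.11.15 with scipy 1.17.1. Positions are from GENCODE vM21 on GRCm38, and promoter windows from RefSeq.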

Additional observations from a re-analysis of the deposited data

Results flagged for a closer look

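Added sequences outside the comparisons gave signal in the chondrocytes, above 0.575 CPM, the level of 3 counts that is taken as the limit for a count of 0. The 60 sequences named A1_BC to A3_BC, which the labels do not describe, summed to 391 CPM (374 to 408) in 101 members, against 259.4 in the other barcodes, 376.7 in the mesenchymal barcodes, 133.6 in the hepatocyte-gene barcodes and 257.9 in free RNA. Of their UMIs, 93.1% lay in 51 members with at least 10 each, and 1 member held 97. FlpE was at 77.85 CPM (70.5 to 85.8) in 96 members, against 49.54 in the other barcodes, 84.29 in the mesenchymal barcodes and 23.84 in free RNA. The A1_BC to A3_BC sequences were found in 54.2% of members with FlpE and 28.7% of those without it, whose median depths were 19430 and 16129 UMIs. WPRE was found in 15.6% of members with FlpE and 31.0% of those without it. The origin of these sequences was not tested.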

How the results depend on the processing

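The number of chondrocytes ran from 196 to 365 under the changes of the rule and the quality limits. The summed matrix level was 8137 CPM with at least 10 Col2a1 UMIs, 6421 with at least 3, 7573 with at least 2 matrilin UMIs, 6702 with Cdh5 UMIs allowed and 7227 with haemoglobin under 1%. It was 7839 CPM under 20000 UMIs, 7328 as a mean of barcodes, 7606 after subtraction of free RNA and, chosen after seeing the data, 7499 without the 23 members holding another cell type's genes. With 1 CPM added in place of 10, 498 genes were higher and 2283 lower. With Cdh5 UMIs allowed, 110 barcodes had a single hashtag. WPRE was at 70.95 CPM with at least 3 Col2a1 UMIs, 79.57 with Cdh5 UMIs allowed and 49.64 after subtraction. Car3 turned to lower, at 3.201 CPM under 20000 UMIs and 1.776 without those 23 members. Ibsp turned to higher, at 673.9 CPM with at least 3 Col2a1 UMIs, where 4162 of the 4187 UMIs of the added barcodes lay in 1 barcode. Of 4250 values of 425 named genes, 3291 stayed within the counting interval, and 66 genes crossed the 2-fold limit at least once, 38 of the crossings under 20000 UMIs. Free RNA was estimated from the hepatocyte genes at 7.63% of chondrocyte UMIs, or 2.91% without Ttr. Of the 1709 Ttr UMIs, 1556 lay in 1 member, so the higher estimate leans on that barcode. The subtracted values use 7.63%. No paired analysis was possible because the groups share 1 library and no result came from a test. One library limits every value to counting error.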

Other observations

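Fetal growth genes, which are active before and shortly after birth, were higher in part: 3 of 10 were at least 2-fold higher than in the other barcodes and none was lower. Peg3, an imprinted zinc finger gene, was at 1054 CPM against 316.5, Igf2, an insulin-like growth factor, at 132.1 against 37.53, and Hmga2, a chromatin protein of fetal tissue, at 512.7 against 191.1. Against the mesenchymal barcodes all 3 were within 2-fold.

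Of 14 hypoxia and glycolysis genes, 12 were within 2-fold of the other barcodes. Hk2, a hexokinase, was higher at 98.94 CPM against 39.18, and Epas1, a hypoxia factor abundant in endothelium, was lower at 5.944 against 125.9. Bnip3, a hypoxia target, was higher than in the mesenchymal barcodes, at 85.90 against 34.51 CPM.

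Of 15 Notch pathway genes, 3 ligands were lower than in the other barcodes and none was higher. Jag1 was at 6.136 CPM against 26.29, Jag2 at 2.684 against 15.94 and Dll4 at 0.192 against 14.03. All 3 calls were lost with Cdh5 UMIs allowed, where Jag1 was at 11.39 CPM, Jag2 at 5.124 and Dll4 at 2.277, and that of Jag2 also with at least 3 Col2a1 UMIs. The receptor Notch2 was at 78.81 CPM against 55.24, within 2-fold.

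Of the 230 chondrocytes with at least 10000 UMIs, 67 held no UMI of 4 Y-linked genes.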
